A study of Mus musculus with 6 samples.

Results

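The V0 sector of the vacuolar ATPase is the membrane-embedded part of the proton pump that acidifies lysosomes, endosomes, the Golgi and synaptic vesicles. The genes described here are 9 subunits and accessory proteins, chosen by name: Atp6v0a1, Atp6v0a2, Atp6v0b, Atp6v0c, Atp6v0d1, Atp6v0e, Atp6v0e2, Atp6ap1 and Atp6ap2. A gene was counted as measured where the platform annotation gave a transcript cluster, the set of probes that reads 1 transcript, with that symbol alone. This held for 8 of the 9 genes, among 16583 genes measured in this way. Atp6v0c, the main proteolipid of the rotor ring, had 0 such clusters and 0 clusters shared with another symbol, and is not analysed here.

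In the pump, ATP hydrolysis in the peripheral V1 sector turns a ring of small proteolipids in V0, and protons cross the membrane between this ring and a large stator subunit. The title of the series names lysosomal genes as the group that USF factors regulate. The factors USF1 and USF2, of the basic helix-loop-helix leucine zipper class, bind E-box sequences, with CACGTG as their best-known core.

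RNA came from Neuro2a, a mouse neuroblastoma cell line with neuronal traits, and each of 6 samples was hybridised to 1 Affymetrix Mouse Gene 1.0 ST array. The 3 USFKD samples came from cells transfected, by lipofection, with plasmids that express artificial microRNAs to USF1 and USF2, and the 3 Control samples from cells given the empty vector. The plasmid system used for the interference also encodes a green fluorescent protein. The titles call the 3 samples of each group biological replicates. They do not say whether these came from separate cultures, and the labels give no sorting of transfected cells and no time after transfection, so the p-values measure only the spread between these samples.

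The deposited values are log2 signals relative to each cluster's own median over the 6 arrays, so they show how a gene differs from array to array and not how strongly it was expressed. Rounding of the values still showed whether a cluster lay at 8 to 16 or at 4 to 8 on the log2 scale before centring. All 8 measured members lay in this brighter class, against 44.1% of all genes. Both targets were lower in the USFKD arrays. Usf1 stood at -0.281, -0.180 and -0.262 in USFKD arrays 1, 2 and 3, against 0.180, 0.322 and 0.429 in Control arrays 1, 2 and 3, a change of -0.55 ± 0.07 (SE) or 0.682-fold. Usf2 stood at -0.220, -0.132 and -0.118 in the USFKD arrays, against 0.118, 0.276 and 0.266 in the Control arrays, a change of -0.38 ± 0.06 (SE) or 0.770-fold. For each target the groups did not overlap (exact two-sided permutation p = 0.10, the smallest that 3 against 3 arrays allow). The limma p adjusted over all genes was 0.320 for Usf1 and 0.348 for Usf2. In these bulk samples, less RNA in every cell and loss of RNA in a share of the cells cannot be told apart.

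USFKD array 2 stood apart in spread. Its standard deviation over all clusters was 0.159, against 0.0531 to 0.0780 on the other 5 arrays. On it the genes of the brighter class had a median of -0.0259 and all other genes 0.0773. Neuronal and neuroblastoma markers lay in the brighter class for 9 of 13 measured genes. Of the markers of other cells, 0 of 9 glial, 1 of 7 fibroblast, 0 of 5 macrophage and blood and 2 of 9 endothelial and epithelial genes were in that class. The mean relative signal of the neuronal list lay between -0.033 and -0.010 on the USFKD arrays and between 0.008 and 0.021 on the Control arrays. For the glial list these ranges were -0.031 to 0.128 on the USFKD arrays and -0.032 to 0.004 on the Control arrays, and for the fibroblast list -0.063 to 0.144 and -0.032 to 0.012. For the macrophage and blood list they were -0.015 to 0.066 on the USFKD arrays and -0.046 to -0.007 on the Control arrays, and for the endothelial and epithelial list -0.032 to 0.098 and -0.072 to 0.030. The part of these differences in the results below was not tested.

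The promoters of the members are described before the changes, because the factors knocked down bind a known core sequence. They were not read before the values were known. RefSeq windows of 250 bases before to 50 bases after an annotated start site (build GRCm38.p6) were listed for 8 of the 9 genes, in 10 windows. Atp6v0a2 had none in the table. The core CACGTG, which reads the same on both strands, occurred in the windows of Atp6v0b, Atp6v0d1 and Atp6v0e. It occurred in 7.15% of all 32851 windows in the table and, counted by gene, in 8.09% of 27025 genes. Among measured genes with a window, 1385 held it and 11686 did not. Of these, 763 with it and 5210 without it were in the brighter class, where all measured members lay. The 3 windows that hold it are shown with CACGTG in capitals, followed by that of Atp6v0a1, which holds no E-box of the general form CANNTG.
Atp6v0b, chr4:117887280-117887579, minus strand: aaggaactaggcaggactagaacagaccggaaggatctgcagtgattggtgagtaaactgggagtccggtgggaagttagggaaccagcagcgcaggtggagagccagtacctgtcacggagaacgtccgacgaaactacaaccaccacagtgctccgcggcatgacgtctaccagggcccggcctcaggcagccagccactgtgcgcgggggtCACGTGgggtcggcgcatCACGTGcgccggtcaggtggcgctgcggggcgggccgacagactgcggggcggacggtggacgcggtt
Atp6v0d1, chr8:105566015-105566314, minus strand: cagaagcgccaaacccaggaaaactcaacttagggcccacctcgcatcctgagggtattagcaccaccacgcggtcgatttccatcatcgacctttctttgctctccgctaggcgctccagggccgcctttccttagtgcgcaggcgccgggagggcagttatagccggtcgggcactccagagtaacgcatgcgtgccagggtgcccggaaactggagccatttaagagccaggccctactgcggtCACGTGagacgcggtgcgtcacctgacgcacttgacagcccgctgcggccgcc
Atp6v0e, chr17:26676146-26676445, plus strand: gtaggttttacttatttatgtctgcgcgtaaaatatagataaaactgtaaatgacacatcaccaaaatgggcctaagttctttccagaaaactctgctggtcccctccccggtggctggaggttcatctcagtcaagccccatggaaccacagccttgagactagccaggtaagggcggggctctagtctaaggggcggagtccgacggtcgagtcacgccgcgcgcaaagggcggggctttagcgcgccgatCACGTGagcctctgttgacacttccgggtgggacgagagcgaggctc
Atp6v0a1, chr11:101010148-101010447, plus strand: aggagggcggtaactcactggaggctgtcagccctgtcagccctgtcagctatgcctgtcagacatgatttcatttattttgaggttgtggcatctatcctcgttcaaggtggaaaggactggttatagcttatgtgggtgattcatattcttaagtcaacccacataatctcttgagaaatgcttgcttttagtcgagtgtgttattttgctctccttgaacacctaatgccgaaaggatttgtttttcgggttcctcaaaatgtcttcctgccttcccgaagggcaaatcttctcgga

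In the window of Atp6v0b the core occurred 2 times, with first bases at -36 and -18 from the start site, where 1 is the first transcribed base. Only 0.594% of all windows held it 2 times or more. The core of Atp6v0d1 ran across the annotated start site, from -3 to 3, and that of Atp6v0e lay just inside the transcript, from 4 to 9. In both of these the bases after the core were ag, so that each read CACGTGa. The longer palindrome TCACGTGA was in 0.974% of all windows, and the core was preceded by gt in Atp6v0d1 and by at in Atp6v0e, so both carried this longer form. The general form CANNTG, which holds the core as a special case, occurred in 72.3% of all windows. It was found in other spellings in the windows of Atp6v0e2, Atp6ap1 and Atp6ap2, and in 2 of the 3 windows of Atp6v0c. A match is a string of letters and not a measured binding site, and the windows leave out more distant sites.

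**Figure D1:**
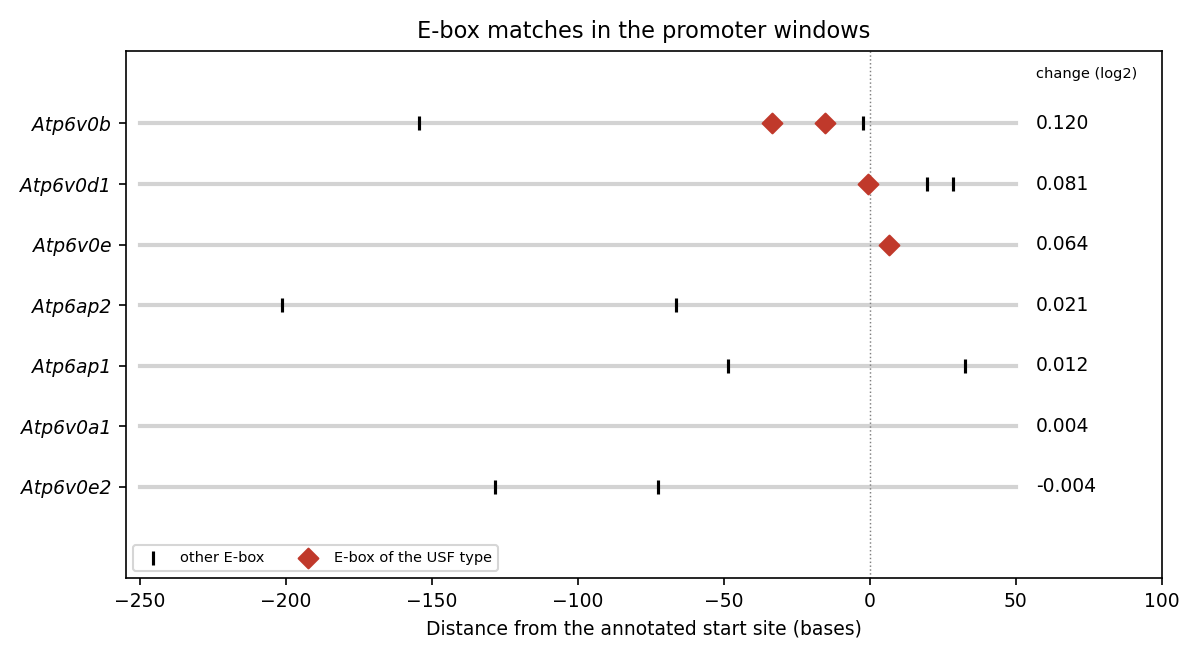
Positions of E-box matches in the 300-base promoter windows of the 7 measured members with a listed window, in bases from the annotated start site, with red diamonds for the core CACGTG, black ticks for other spellings of CANNTG and the log2 change (USFKD minus Control) at the right. The core occurs in Atp6v0b, Atp6v0d1 and Atp6v0e, all within 36 bases of the start site.

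Over all members the changes after knockdown were small and mostly above 0. Of the 8 measured genes, 7 had a higher mean in the USFKD arrays and 1, Atp6v0e2, a lower one. A higher mean was seen for 49.6% of all genes and 40.7% of the brighter class. Among the 7, Atp6v0a1, Atp6ap1 and Atp6ap2 had changes smaller than their standard errors. The members share the same arrays and are not replicates. Their median change was 0.0387 on the log2 scale, beside -0.0007 over all genes and -0.0114 over the genes of the brighter class. In limma with Benjamini-Hochberg adjustment over all genes 0 members passed 0.05, beside 0.00603% of all genes. At an unadjusted p under 0.05 the count was 1 higher and 0 lower, beside 1.60% of genes higher and 2.65% lower. For 4 members, Atp6v0b, Atp6v0d1, Atp6v0e and Atp6v0a2, every USFKD array lay above every Control array, which held for 4.33% of all genes. For 0 members did every USFKD array lie below, which held for 5.95% of all genes.

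Among the rotor subunits, Atp6v0b had the largest change of the measured members. It encodes the c'' proteolipid, which sits in the ring beside the copies of the c subunit. It stood at 0.080, 0.067 and 0.018 in USFKD arrays 1, 2 and 3, against -0.101, -0.076 and -0.018 in Control arrays 1, 2 and 3. All USFKD values were above 0 and all Control values below it, with the third array of each group nearest to 0. The means were 0.055 ± 0.033 in USFKD and -0.065 ± 0.043 in Control (SD, n = 3 arrays each). The change was 0.12 ± 0.04 (SE), or 1.09-fold with a 95% interval of 1.01 to 1.17. Its unadjusted limma p of 0.0271 became 0.996 after adjustment over all genes, and 2.23% of genes had a smaller p. Leaving out USFKD array 1, Control array 1 or Control array 2 gave changes of 0.11, 0.10 and 0.11 with unadjusted limma p of 0.0939, 0.0784 and 0.0753. Against the Control mean, the 3 USFKD arrays stood 0.145, 0.132 and 0.083 higher, so the wide-spread array 2 lay between the other two.

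Atp6v0d1 encodes the d subunit, which couples the ring to the central stalk of V1. It stood at 0.014, 0.072 and 0.054 in the USFKD arrays, against -0.041, -0.014 and -0.046 in the Control arrays. The groups did not overlap, and here array 1 was the lowest of the USFKD arrays. The change was 0.08 ± 0.04 (SE), or 1.06-fold with a 95% interval of 0.990 to 1.13, and it did not pass (limma adjusted p = 0.996, 0.0843 unadjusted). Tested among the genes of the brighter class only, its unadjusted limma p was 0.0418 with an adjusted p of 0.607.

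**Figure D2:**
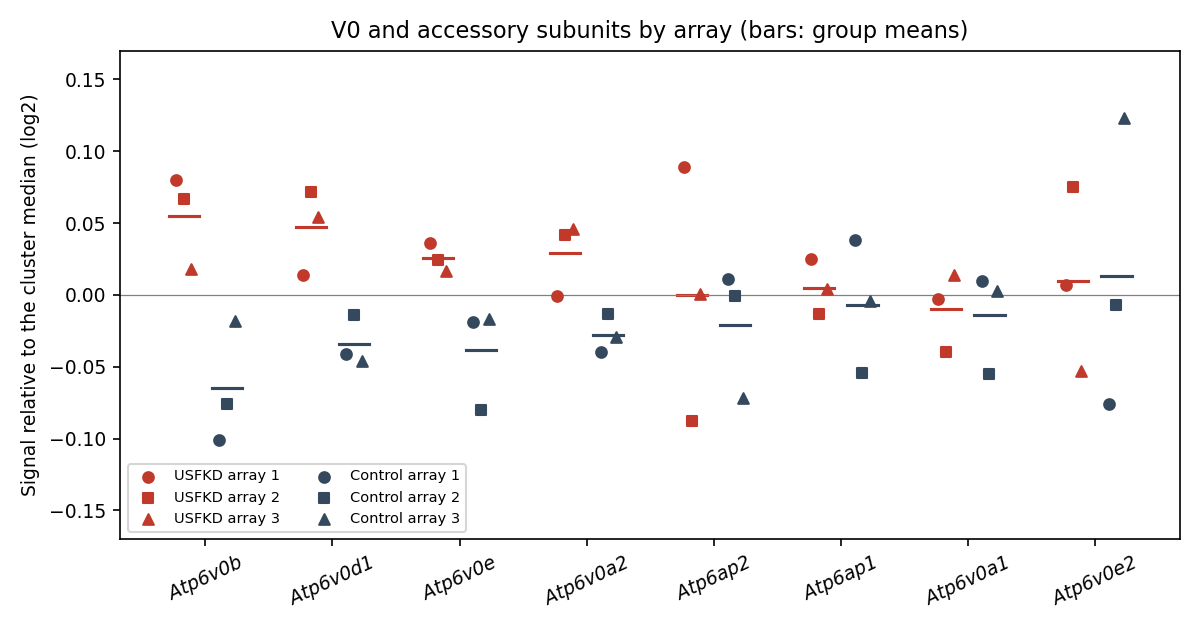
Log2 signal relative to the cluster median for each of the 8 measured members, with the 3 USFKD arrays (red) left of the 3 Control arrays (dark blue), a marker shape for each array number and bars at group means. The groups do not overlap for Atp6v0b, Atp6v0d1, Atp6v0e and Atp6v0a2, and they overlap for the other 4 genes.

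The small e subunits are very short membrane proteins of V0 with a less defined role. Atp6v0e encodes the widely expressed form. It stood at 0.036, 0.024 and 0.017 in the USFKD arrays, against -0.019, -0.080 and -0.017 in the Control arrays. The USFKD values were close together and all above the Control values, of which that of array 2 was the lowest. The change was 0.06 ± 0.04 (SE), or 1.05-fold with a 95% interval of 0.979 to 1.12 (limma adjusted p = 0.996, 0.159 unadjusted), and without Control array 2 it was 0.04. Its paralog Atp6v0e2, which is enriched in brain, had a wide spread. It stood at 0.007, 0.075 and -0.053 in the USFKD arrays, against -0.076, -0.007 and 0.123 in the Control arrays. The Control arrays alone spanned the whole range of the USFKD arrays, and the change of -0.0035 ± 0.0624 (SE) had a 95% interval of 0.902- to 1.10-fold. Without USFKD array 3 or Control array 3 it turned to 0.03 and 0.05.

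The a subunits form the stator with the half-channels for protons and direct the pump to its membrane. Atp6v0a1 encodes the form found at synaptic vesicles and elsewhere in neurons, and Atp6v0a2 a form of the Golgi and endosomes. Atp6v0a2 was read by 2 clusters, averaged here. Their mean stood at -0.001, 0.042 and 0.046 in the USFKD arrays, against -0.040, -0.013 and -0.029 in the Control arrays. The averaged groups did not overlap, with USFKD array 1 nearest to the Control arrays, and the change was 0.06 ± 0.04 (SE), or 1.04-fold with a 95% interval of 0.975 to 1.11 (limma adjusted p = 0.996, 0.196 unadjusted). Taken on their own, cluster 10525804 had a change of 0.06 and groups that did not overlap. Cluster 10525833 had a change of 0.05, and its groups overlapped, with USFKD array 1 at -0.009 and Control array 2 at 0.009. Atp6v0a1 stood at -0.003, -0.040 and 0.014 in the USFKD arrays, against 0.010, -0.055 and 0.003 in the Control arrays. In each group array 2 was the lowest, and the groups overlapped. Its change of 0.0044 ± 0.0424 (SE) had a 95% interval of 0.937- to 1.07-fold (limma adjusted p = 0.998, 0.920 unadjusted), and the sign turned without Control array 2 (-0.0161) or USFKD array 3 (-0.0074).

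The accessory proteins are single-pass glycoproteins that act in the assembly and sorting of the pump. Atp6ap1 encodes the subunit also known as Ac45. It stood at 0.025, -0.013 and 0.004 in the USFKD arrays, against 0.038, -0.054 and -0.004 in the Control arrays. The groups overlapped, and both the highest and the lowest value belonged to Control arrays. The change was 0.0117 ± 0.0434 (SE), with a 95% interval of 0.940- to 1.08-fold (limma adjusted p = 0.996), and it was -0.0121 without Control array 2. Atp6ap2 encodes the protein also known as the prorenin receptor. It stood at 0.089, -0.088 and 0.001 in the USFKD arrays, against 0.011, -0.001 and -0.072 in the Control arrays. Its highest and its lowest value were both in USFKD arrays, and the change of 0.0209 ± 0.0560 (SE) had a 95% interval of 0.927- to 1.11-fold (limma adjusted p = 0.996). Without USFKD array 1 or Control array 3 it was -0.0233 and -0.0048, and without USFKD array 2 it was 0.07.

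**Figure D3:**
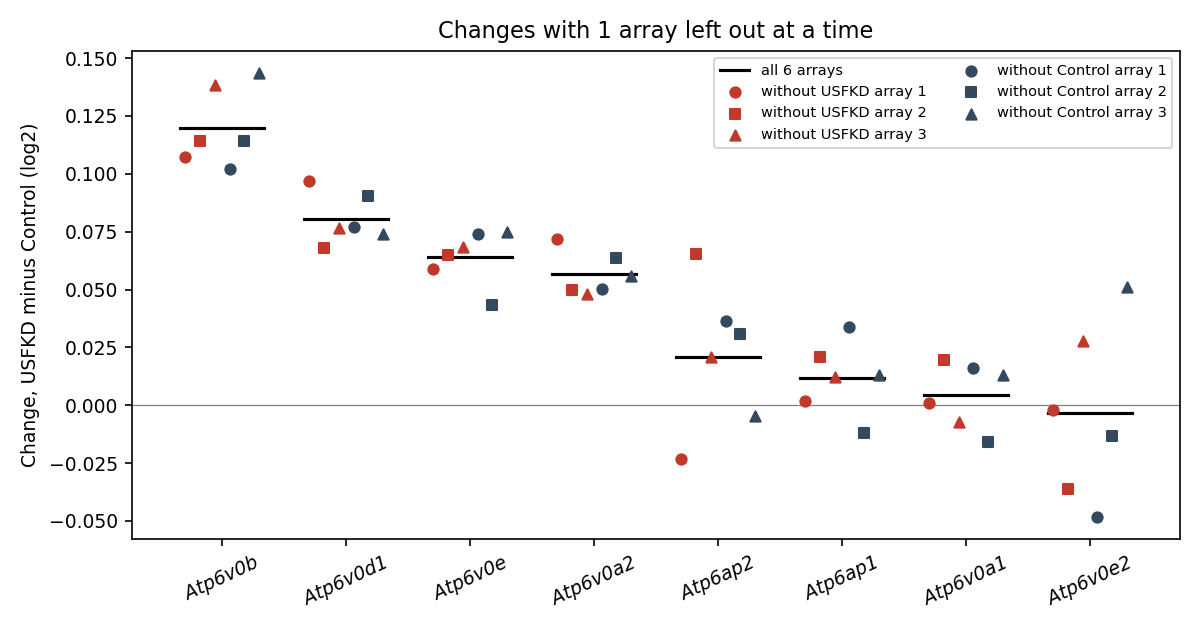
Log2 change (USFKD minus Control) of each measured member with 1 array left out at a time, red for USFKD and dark blue for Control arrays, with black bars for the fit to all 6 arrays. Atp6v0b, Atp6v0d1, Atp6v0e and Atp6v0a2 lie above 0 in all 6 fits, while Atp6ap2, Atp6ap1, Atp6v0a1 and Atp6v0e2 lie on both sides of 0.

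By size of change the members ran in the order Atp6v0b, Atp6v0d1, Atp6v0e, Atp6v0a2, Atp6ap2, Atp6ap1, Atp6v0a1, Atp6v0e2. Neighbours in this order differed by at most 0.04, about as much as the standard error of a single change, so their order is not resolved. The 95% intervals of 7 of the 8 members included 0, and that of Atp6v0b did not. These intervals are not adjusted for the number of genes. Across all 8 members they ran from 0.902-fold to 1.17-fold.

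The 3 members with CACGTG in their window had changes of 0.12, 0.08 and 0.06 in the fit to all 6 arrays, beside -0.0035 to 0.02 in the 4 measured members whose windows lack it and 0.06 in Atp6v0a2, which has no listed window. This split was seen after the values and was not tested. It did not hold in every alternative: Atp6ap2, whose window lacks the core, stood at 0.0652 without USFKD array 2, level with Atp6v0e at 0.065. With array quality weights Atp6ap2 stood at 0.1164, above Atp6v0e at 0.0752 and Atp6v0d1 at 0.0484. Over the whole table, 1385 measured genes had CACGTG in a listed window and a median change of -0.0033, beside -0.0012 in the 11686 genes with a window and no core. At an unadjusted limma p under 0.05, 2.31% of the genes with the core were higher and 4.62% lower, beside 1.57% higher and 2.44% lower of those without it. Genes with the core were in the brighter class in 55.1% of cases, beside 44.6% of the others.

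Paired subunits were compared within each array, which cancels any shift common to the array. The log2 ratio of Atp6v0a1 over Atp6v0a2 averaged -0.039 ± 0.041 in USFKD and 0.013 ± 0.049 in Control (SD, n = 3 each), a difference of -0.05 (exact two-sided permutation p = 0.30). That of Atp6v0e over Atp6v0e2 averaged 0.016 ± 0.061 in USFKD and -0.052 ± 0.10 in Control, a difference of 0.07 (exact permutation p = 0.40). That of Atp6ap1 over Atp6ap2 averaged 0.005 ± 0.069 in USFKD and 0.014 ± 0.062 in Control, a difference of -0.0091 (exact permutation p = 0.80). In each ratio the groups overlapped, and the exact p adjusted over the 3 ratios was 0.60, 0.60 and 0.80. With 3 against 3 arrays the exact permutation p cannot fall below 0.10, so no ratio could have passed 0.05. These p-values therefore do not show that the ratios were unchanged. A ratio of Atp6v0b over Atp6v0c could not be formed without a value for Atp6v0c.

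Outside the members, 5 further V0-related genes were listed, namely Tcirg1, Atp6v0a4, Atp6v0d2 and Atp6ap1l, which are paralogs of members, and Rnasek, a protein associated with V0. Of these, 4 were measured, all but Atp6v0d2, 0 passed in limma over all genes or at an unadjusted p under 0.05, and the median change was 0.06. Atp6v0a4, the a subunit of acid-secreting cells in the kidney, had 0.12 ± 0.07 (SE, limma adjusted p = 0.996) and lay outside the brighter class. Tcirg1, the a subunit of osteoclasts, had 0.05 ± 0.05 (SE, adjusted p = 0.996). In both genes the groups overlapped. Both had a listed promoter window, and neither window held CACGTG.

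The V1 sector, which hydrolyses ATP on the cytosolic side, had changes over a wider range. All 13 listed genes were measured, with changes from -0.17 to 0.14 and a median of 0.04, beside -0.0035 to 0.12 and 0.0387 in the V0 list. Of the V1 genes 0 passed in limma over all genes, while 2 on the higher side and 1 on the lower had an unadjusted p below 0.05. The catalytic subunit Atp6v1a had a change of 0.14 and Atp6v1b2, its partner in the hydrolytic ring, 0.13, with all USFKD arrays above all Control arrays in both. Atp6v1d, a subunit of the central stalk that meets the d subunit of V0, had -0.17, with all USFKD arrays below, and Atp6v1f, also of the stalk, -0.11. Promoter windows were listed for 9 V1 genes, and 1 of them, that of Atp6v1a, held CACGTG.

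**Figure D4:**
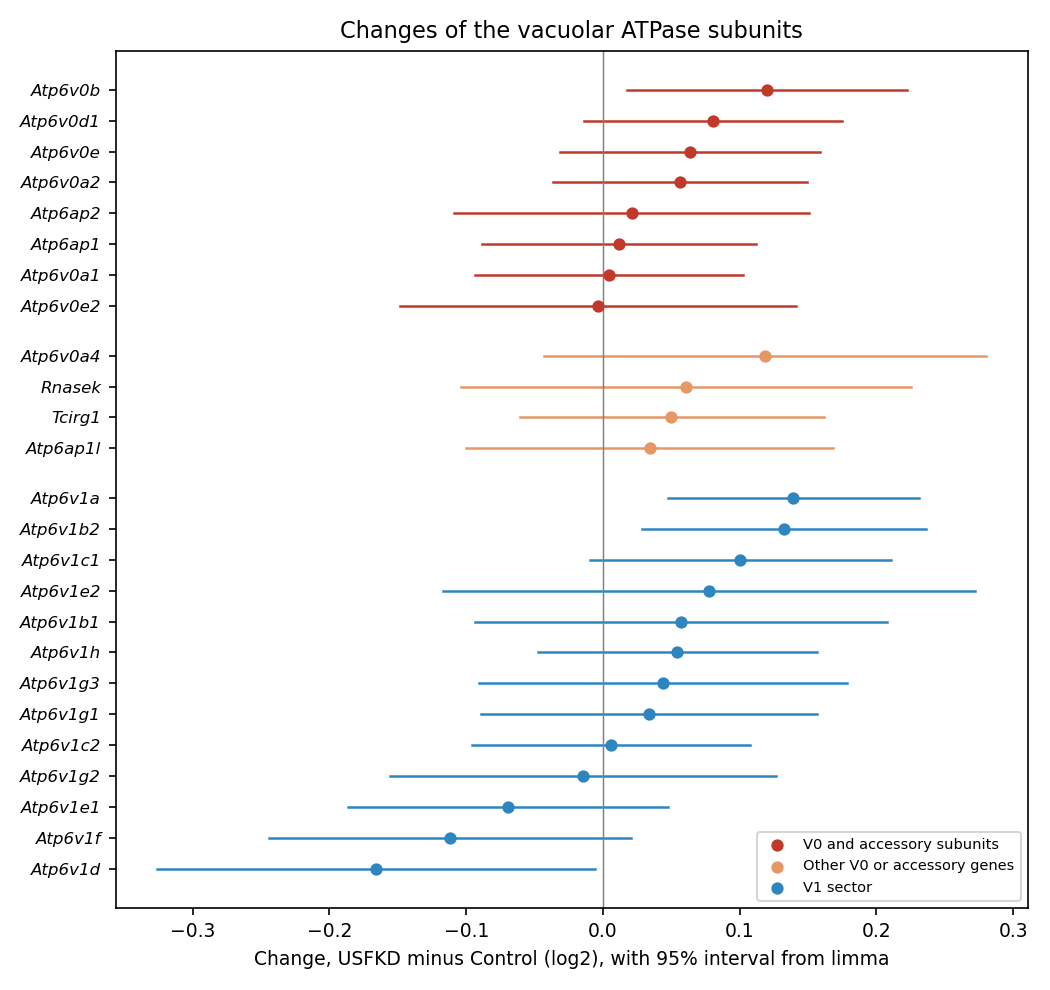
Log2 change (USFKD minus Control) with its 95% interval from limma for the 8 measured V0 and accessory subunits (red), 4 other V0-related genes (orange) and 13 V1 genes (blue). The V0 members range from -0.0035 to 0.12, and the V1 genes from -0.17 to 0.14.

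Genes that act on the assembly and regulation of the pump were spread about 0. Of 13 measured, 0 passed in limma over all genes, an unadjusted p below 0.05 was reached by 1 on the higher and 1 on the lower side, and the median was -0.02. Rab7, a GTPase of late endosomes, had 0.13 ± 0.04 (SE, limma adjusted p = 0.996) and Ccdc115, a factor of V0 assembly in the endoplasmic reticulum, 0.08 ± 0.04 (adjusted p = 0.996). Ncoa7, a TLDc protein that binds the pump, had -0.11 ± 0.04 (SE, limma adjusted p = 0.996) and Meak7, another TLDc protein, -0.08 ± 0.05 (adjusted p = 0.996). Ncoa7 and Meak7 lay outside the brighter class, while Rab7 and Ccdc115 lay in it. For Rab7 and Ccdc115 all USFKD arrays lay above all Control arrays, and for Ncoa7 all lay below. Promoter windows were listed for 9 of these genes, and those of 3 held CACGTG. These were Ccdc115, Tbc1d24 (change of -0.0314) and Vma21 (-0.0442). The window of Rab7 did not hold it.

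Other genes of ion transport in endosomes and lysosomes showed no call either. Measured were 11 genes of 12, of which 0 passed in limma over all genes and 0 had an unadjusted p below 0.05, and the median was 0.0008. Ostm1, the partner of the chloride-proton exchanger Clcn7, had 0.09 ± 0.04 (SE, limma adjusted p = 0.996) and Tpcn1, an endolysosomal cation channel, 0.07 ± 0.06 (adjusted p = 0.996). On the lower side stood Clcn5, an endosomal chloride-proton exchanger, at -0.07 ± 0.06 (SE, limma adjusted p = 0.996). Tmem175, a lysosomal cation channel, stood at -0.05 ± 0.05 (SE, limma adjusted p = 0.996). Promoter windows were listed for 10 of these genes, and those of 4 held CACGTG. These were Clcn6 (change of 0.0421), Clcn4 (0.0171), Clcn7 (0.0008) and Mcoln1 (-0.0134). The window of Ostm1 did not hold it.

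The genes most like Atp6v0b over the 6 arrays, by Pearson's r of the relative signals, were Ces3b, Cfap74 and Mmp9, at r of 0.994, 0.989 and 0.979. Of all genes outside the members, 23 had an r of 0.95 or more. Within the members, r with Atp6v0b was 0.824 for Atp6v0e, 0.720 for Atp6v0d1 and 0.682 for Atp6v0a2, and between 0.016 and 0.393 for the other 4. All these values share the same 6 arrays, the same normalization and the difference between the groups, and are given as a description.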

How the data were processed

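Expression was measured on 6 Affymetrix Mouse Gene 1.0 ST arrays, 3 USFKD and 3 Control, grouped by sample title. Per the labels' protocols, total RNA was converted to labelled cDNA with an Ambion amplification kit and an Affymetrix terminal labelling kit. The authors deposited 1 table of 22891 transcript clusters, read here as log2 values, with every cluster centred on its median over the arrays. The log2 scale was taken from the rounding steps of the values. How background was corrected and arrays were normalized is not given in the sources used here. The table of sequences gave promoters from RefSeq (GRCm38.p6).

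The platform annotation named the genes. Of the clusters, 18087 had 1 symbol, 1145 had several and 3659 were unnamed here. Clusters of the same gene were averaged, which gave 16583 genes. From the rounding step, 9975 clusters were placed at 8 to 16 before centring, 12915 at 4 to 8 and 1 in neither. A cluster with arrays on both sides of 8, or a chance match, can be placed wrongly.

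Changes are USFKD minus Control, from limma 3.58.1 (lmFit, eBayes; R 4.3.3). P-values were adjusted by Benjamini-Hochberg across the whole table, and 0.05 was the threshold. The median standard error was 0.0561, and the number of arrays limits the precision. Ratios used exact permutation tests over arrays (SciPy 1.17.1), and figures matplotlib 3.10.9. The fit was also run on simulated data with planted changes. All planted changes were larger than any change of a member, so that run does not bear on changes as small as these. The members and lists were chosen with earlier results of these data known. Named are all members, both targets, the 2 genes of each other pump or transport list with the smallest p in each direction, and the 3 genes most like the leading member. Alternatives were array centring, quantile normalization, leaving out each array, the replicate number as a block, array weights, robust variance, single clusters and the brighter class alone.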

Additional observations from a re-analysis of the deposited data

How the results depend on the processing

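Atp6v0b, Atp6v0d1, Atp6v0e and Atp6v0a2 kept a change above 0 under every alternative run. These genes had groups that did not overlap, so leaving out, reweighting or blocking arrays could not turn the sign. For those alternatives the stable sign restates the lack of overlap. With 1 array left out at a time, their changes ran from 0.10 to 0.14, 0.07 to 0.10, 0.04 to 0.07 and 0.05 to 0.07. Those of Atp6ap1 (-0.0121 to 0.034), Atp6ap2 (-0.0233 to 0.0652), Atp6v0a1 (-0.0161 to 0.0195) and Atp6v0e2 (-0.0483 to 0.0512) turned sign in 1, 2, 2 and 2 of the 6 fits, as did the Atp6ap1 over Atp6ap2 ratio (-0.0442 to 0.025) in 2. The other ratios ran from -0.08 to -0.03 (Atp6v0a1 over Atp6v0a2) and from 0.02 to 0.12 (Atp6v0e over Atp6v0e2). The median of the members ran from 0.0302 to 0.0575, highest without USFKD array 2, and was 0.0618 after quantile normalization.

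With array quality weights 1 member passed in limma over all genes, Atp6v0b (0.14, adjusted p = 0.0288), 3 were higher at an unadjusted p under 0.05, and 1111 genes passed in all. Usf1 stood at -0.62 (adjusted p = 0.000345) and Usf2 at -0.46 (0.000635). Of the members, Atp6ap2 stood at 0.12 (limma adjusted p = 0.0624) beside 0.02 without weights, while Atp6v0a2 was at 0.0252 beside 0.0566 and Atp6v0d1 at 0.0484 beside 0.0805. Atp6ap1, Atp6v0a1 and Atp6v0e2 were at 0.0375, 0.0132 and -0.0297. Quantile normalization put Atp6ap2, Atp6ap1, Atp6v0a1 and Atp6v0e2 at 0.061, 0.0247, 0.0167 and -0.0128. The weights were 33, 0.136 and 0.441 on USFKD arrays 1, 2 and 3, so that the USFKD mean was in effect that of 1 array. In the other alternatives 0 members passed in limma. At an unadjusted limma p under 0.05, 0 to 1 members were higher, or 2 in the fit to the brighter class alone. In that fit the change of Atp6v0d1 was the same, and its standard error was 0.0334, beside 0.0407 in the fit to all genes. Genes passing over the whole table were 0 to 1 in the fits without 1 array. The cause of the other shifts was not tested.

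With the replicate block 0 genes passed in limma, 245 genes were higher at an unadjusted p under 0.05 and 0 of these were members (0.0599 for Atp6v0b), and the limma adjusted p of Usf1 and Usf2 was 0.619 and 0.832. Same-numbered arrays had correlations of 0.00311, 0.0819 and 0.0364 between their deviations from the group means. Those of differently numbered arrays ran from -0.0942 to 0.0535, and not every array correlated best with its own number. Values this small do not settle whether the samples were handled in pairs. The block changed no call of a member over all genes. How far a dim signal limits the reading of genes outside the brighter class is not known.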
